A study of Sparus aurata with 9 samples.

Results

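Gilthead sea bream (Sparus aurata) that carried a cortisol implant were compared in the liver between 14 and 7 days after implantation, on 6 of the 9 arrays of the series. The 6 arrays were those titled for day 7 and day 14, pools 1, 2 and 3 of each. Both groups were adult fish of a stock with a mean weight of 108 g kept at 15 °C. Both received an intraperitoneal implant of cortisol, as hydrocortisone hemisuccinate in coconut oil, at 200 µg per g body weight, and by their labels they differed in the day of sampling alone. RNA of 2 fish was pooled for each array, which makes 12 fish on the 6 arrays, and p-values here measure the spread from pool to pool. No fish was fed during the experiment, so a longer time with the implant and a longer fast cannot be told apart. The other 3 arrays, from control fish, are described as untreated in one label and by the protocol as given coconut oil alone, with no sampling day. They entered the fit for their share of the spread between pools and are given beside the results. In RNA from whole liver, fewer cells of a type and less RNA per cell cannot be told apart.

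Cortisol is the main glucocorticoid of bony fish. It acts through glucocorticoid receptors, which bind DNA and change transcription in target cells, and the liver is among its main targets. In fish liver it is known for raising the output of glucose and the use of amino acids, and for acting on growth factor and immune genes. A slow-release implant keeps the hormone high over days and is used as a model of chronic stress, in which the early response to the hormone and the later adjusted state of the tissue can differ. The comparison of day 14 with day 7 asked which transcripts differed between these times under the same dose.

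The arrays carried 43803 spots of custom probes for 15156 sea bream sequences, which are contigs and cDNA clones known here by number. No sequence name matched the 32006 genes of the reference table, so the results are given by sequence and by counts, no gene is named, and the liver label could not be checked against marker genes. The level of a sequence was the mean log2 signal of its probes minus the 75th percentile of that array, so that 0 is the signal that 75% of the spots of an array do not exceed. Of the 15156 sequences, 9955 had at least 1 probe well above background on 3 or more of the 9 arrays and were tested. Of these, 5511 rested on 1 kept probe and 4444 on 2 or more.

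Each slide that held day 7 RNA also held the day 14 RNA of the same pool number. Pools 1 lay on slide 2, pools 2 on slide 3 and pools 3 on slide 1, so that each pool number gave a difference within a slide, called here the pool 1, pool 2 or pool 3 pair. The pool number marks a shared slide and not shared fish. Day 14 pool 1 stood apart in detection and background. On it 34.7% of the spots were well above background, against 65.2% and 61.7% on day 14 pools 2 and 3 and 49.1% to 59.7% on the day 7 arrays. Its lowest processed signal was 22.3 scanner units, against 3.41 to 7.79 on the other 8 arrays, and the surface that the scanner software removed as spatial trend had a root mean square of 29.5 units on it, against 2.48 to 11.6. Its slide also had the lowest ratios of spike-in signal to negative controls, 9.77 for day 14 pool 1 and 11 for day 7 pool 1, against 14.2 to 130 on the other arrays. By other measures day 7 pool 3 stood out. The 75th percentile of its processed signal was 117 units, against 226 to 673 on the other arrays and 250 on day 14 pool 1. Past 2-fold, it was alone highest of all arrays for 88 of 9950 sequences and alone lowest for 100. For day 14 pool 1 these counts were 63 and 47.

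**Figure D1:**
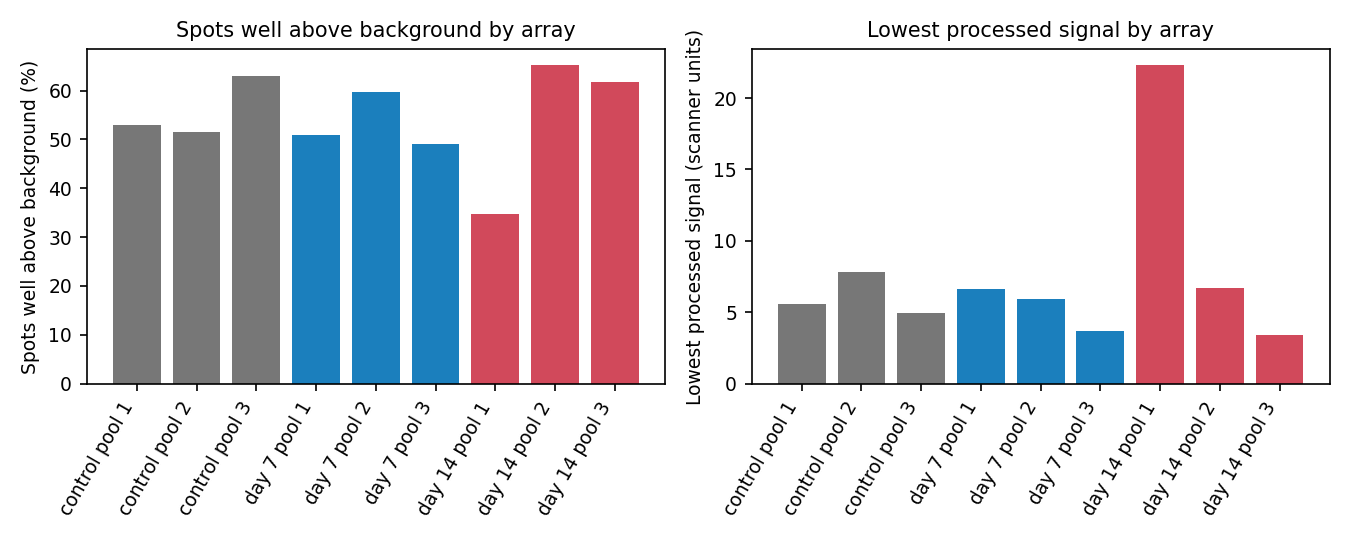
Share of non-control spots well above background in % (left) and lowest processed signal in scanner units (right) on each of the 9 arrays, coloured by group (grey control, blue day 7, red day 14). Day 14 pool 1 has the lowest share, 34.7%, and the highest lowest signal, 22.3.

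No sequence differed between day 14 and day 7 after adjustment over all sequences. With the 3 groups fitted together in limma and p-values adjusted by Benjamini-Hochberg, 0 of 9955 sequences passed an adjusted p of 0.05 (0% called), and the smallest adjusted p was 0.206. At an unadjusted limma p under 0.05 there were 638 sequences higher at day 14 (6.41% of all tested) and 506 lower (5.08%), 1144 in all against the 498 that 5% of the tests amounts to. With slide as a block the adjusted test again gave 0 calls (0%), with 737 sequences higher (7.4%) and 781 lower (7.85%) at an unadjusted limma p under 0.05. The split between higher and lower changed with the scaling, the block and the filter, and gives no direction for the liver as a whole. With the scaling kept, 48.6% were higher with slide as a block and 65.4% with no filter on dim probes. Of the sequences at an unadjusted p under 0.05, 55.8% were higher at day 14 as scaled here, 76.2% with each array scaled on its median, 47.4% after quantile normalization, 40.9% after normexp background correction and 32% with the authors' value table. The median difference over all sequences moved from -0.04 to 0.07 on the log2 scale with the median and to -0.15 with the authors' table. After normexp it was 0.03. Tested probe by probe, 1 of 18278 probes was called (0.00547%), higher at day 14, and it belongs to the clone cDN11P0005A21.F.ab1 described below, while 2069 probes had an unadjusted limma p under 0.05 (11.3%).

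The count of 0 depended on how the arrays were weighted. With weights per array estimated over all sequences, 993 sequences were called, 530 higher and 463 lower. Control pool 3 and day 7 pool 2 then carried weights of 5.5 and 4.96 against 0.302 to 1.83 for the other 7 arrays. The lowest weights were 0.302 for control pool 2, 0.341 for day 7 pool 3 and 0.364 for day 14 pool 1. With the same kind of weights estimated gene by gene, an alternative chosen after the results were seen, 83 were called.

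Most differences were small. The middle 50% of the sequences lay between -0.38 and 0.31 on the log2 scale (day 14 minus day 7, means of 3 arrays), and 90% between -0.89 and 0.92. A mean difference past 2-fold was found for 399 sequences higher at day 14 (4.01%) and 321 lower (3.22%). The spread between pools at one time was of the same order: its median SD over sequences was 0.391 at day 7, 0.337 at day 14 and 0.346 in controls (n = 3 each). The difference had 1 direction within all 3 slides for 1734 sequences higher at day 14 (17.4%) and 2193 lower (22%). All 3 day 14 arrays lay above all 3 day 7 arrays for 941 sequences (9.45%) and below them for 913 (9.17%). With 3 arrays against 3, an exact two-sided permutation test of a single sequence cannot go below 0.1, and with 3 pairs an exact sign-flip test cannot go below 0.25.

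Probes of one sequence gave like differences. Over the 4440 sequences with a measured difference for at least 2 probes, the first 2 probes had the same direction in 81.3%. Where the first probe differed past 2-fold, the second had its direction in 355 of 375 sequences (94.7%), and past 4-fold in 36 of 37 (97.3%). These probes were read on the same arrays and share their RNA.

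The within-slide differences of pools 2 and 3 resembled each other, and those of pool 1 correlated weakly with either. Across 9954 sequences measured in all pairs, the pool 2 and pool 3 differences correlated at r = 0.576 (Spearman's rho 0.623), a description across sequences, which are not independent and share the arrays. The pool 1 difference correlated at 0.091 with that of pool 2 and at -0.045 with that of pool 3. Pools 2 and 3 share no fish, no array and no slide, and they were scanned on different days. The differences were of like size in all pairs, with an SD over sequences of 0.81 for pool 1, 0.78 for pool 2 and 0.91 for pool 3. Past 2-fold, the pool 1 pair had 1038 sequences higher (10.4%) and 810 lower (8.14%), the pool 2 pair 698 (7.01%) and 732 (7.35%), and the pool 3 pair 1062 and 1223 (12.3%).

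**Figure D2:**
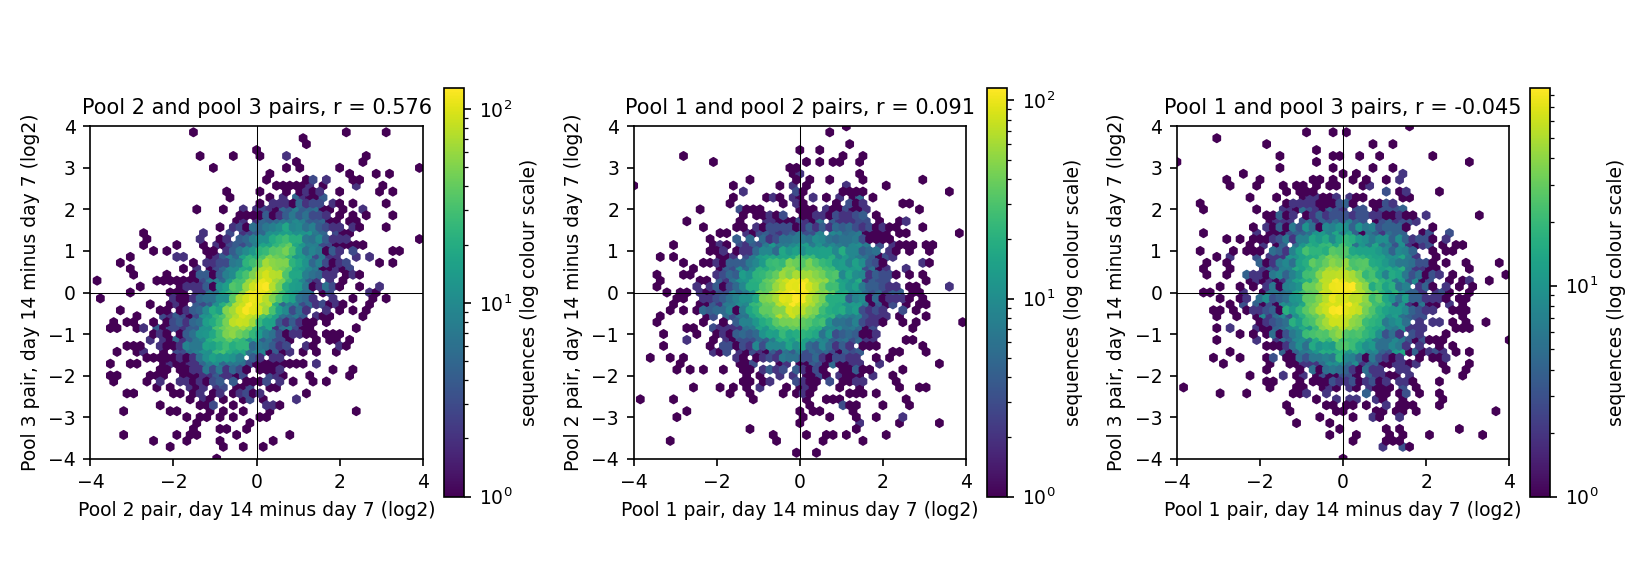
Day 14 minus day 7 difference (log2) of each sequence in one pair of arrays on a slide against the difference in another pair, with colour for the number of sequences on a log scale and axes limited to 4 log2 units either way. The cloud is tilted for pools 2 and 3 (r = 0.576) and has no tilt where pool 1 is on an axis (r = 0.091 and -0.045).

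The likeness of pools 2 and 3 was found at every level of signal. In 4 groups of equal size from dim to bright sequences it was 0.532, 0.596, 0.595 and 0.642, while the values with pool 1 lay between -0.145 and 0.132. With only those probes that were detected on each of the 9 arrays, day 14 pool 1 included, it was 0.633 (5339 sequences), against 0.127 and -0.068 with pool 1. The likeness over all sequences did depend on the background correction, since r was 0.518 to 0.633 in 9 alternatives but 0.087 after normexp. Within the 4 groups from dim to bright, normexp gave 0.314, 0.378, 0.469 and 0.617, while the median differences of pools 2 and 3 moved apart among dim sequences, to -0.50 and 0.62 in the dimmest. Arrays were also paired across slides, an alternative chosen after the results were seen. Of the 18 comparisons of 2 differences that share no array, the 12 that used day 14 pool 1 gave r from -0.211 to 0.168 and the 6 without it gave 0.135 to 0.576, so the ranges overlapped. The lowest values without it, 0.135 and 0.216, set day 14 pool 2 minus day 7 pool 3 against a difference that used day 14 pool 3. Among whole arrays, day 14 pools 2 and 3 correlated at 0.967 across sequences, and day 14 pool 1 at 0.927 and 0.923 with them. The latter were no higher than its correlation of 0.946 with day 7 pool 2. Control pool 2 correlated at 0.912 and 0.923 with the other controls and at 0.936 with day 7 pool 2. That case is not alike, since control pool 2 shares slide 3 with day 7 pool 2 and the other controls lay on slide 1. Day 14 pool 1 and day 7 pool 2 lay on different slides. The part of the lower detection and higher lowest signal of day 14 pool 1 in its weak pair correlations was not tested beyond these values. Its array and its fish cannot be told apart.

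Sequences chosen in 2 pairs were read in the remaining pair, which restates the correlations above in counts and adds no support to them. Of 176 sequences past 2-fold higher in the pool 1 and pool 3 pairs (1.77% of all), 85.8% were also higher in the pool 2 pair, where 49.4% of all sequences were. Of the 100 past 2-fold lower in those pairs (1%), 93% were also lower in the pool 2 pair, against 50.6% of all. Reading the pool 3 pair gave 83.9% of 211 sequences chosen as higher (2.12%) and 82.4% of 91 chosen as lower (0.914%), against 46.7% and 53.3% of all. The pool 1 pair was read in the same way. Of 340 sequences past 2-fold higher in the pool 2 and pool 3 pairs (3.42%), 57.6% were higher in it, against 47.7% of all, and of 374 past 2-fold lower (3.76%), 48.9% were lower in it, against 52.3% of all. Past 2-fold in the pool 1 pair too were 26.2% of the 340, against 10.4% of all, and 11% of the 374, against 8.14% of all. These shares are not matched for level. The median pool 1 difference was 0.19 in the dimmest of the 4 groups, against -0.20, -0.06 and -0.04 in the others. The part of this shift in the shares was not tested.

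**Figure D3:**
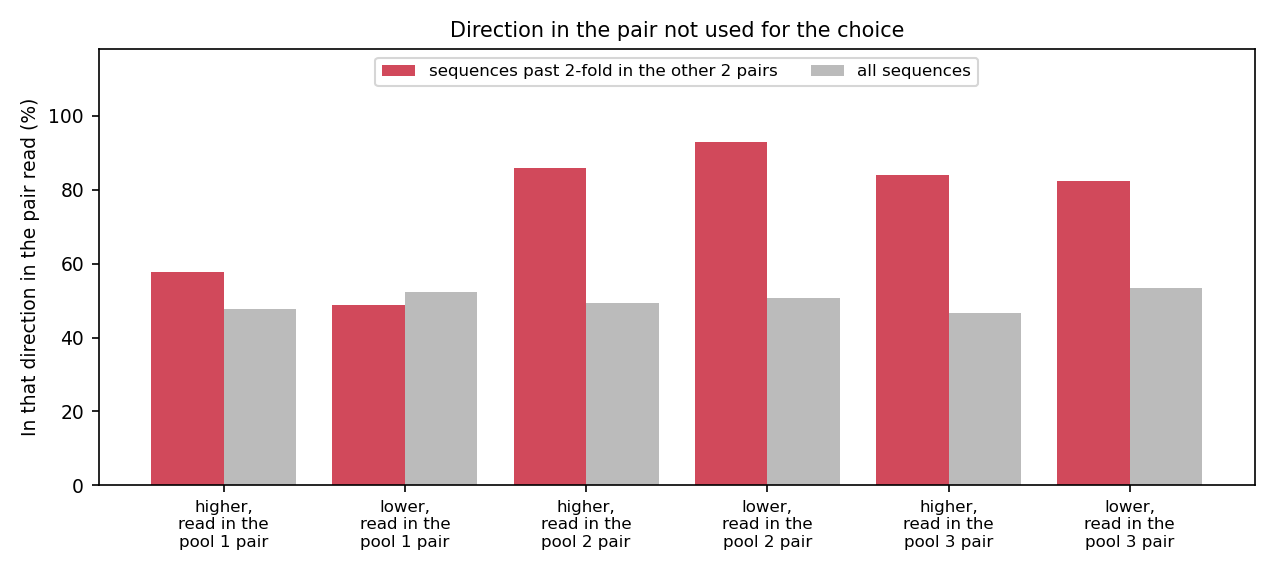
Share of sequences, in %, with the named direction in the pair read, for sequences past 2-fold in the other 2 pairs (red) and for all sequences (grey). The red bars stand at 82.4% to 93% where pool 2 or pool 3 was read, and at 57.6% and 48.9% where pool 1 was read.

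Most differences past 4-fold in pools 2 and 3 were not past that fold in pool 1, which also held for nearly all sequences. Past 4-fold, 35 sequences were higher in the pool 2 and pool 3 pairs (0.352%) and 23 lower (0.231%). In the pool 1 pair 17 of the 35 were higher, 1 of them past 4-fold, with a median difference of -0.01, and 5 of the 23 were lower, 2 of them past 4-fold, with a median difference of 1.10. Of all sequences, 47.7% were higher in that pair and 52.3% lower. Past 4-fold higher in it were 2.86% of the 35, against 1.37% of all, and past 4-fold lower 8.7% of the 23, against 1.04% of all. Past 8-fold there were 13 higher (0.131%) and 6 lower (0.0603%), and the pool 1 pair passed that fold for 1 of the 13 and for none of the 6, all 6 of which were higher in it. Of all sequences, 0.231% were past 8-fold higher in the pool 1 pair and 0.211% past 8-fold lower.

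Leaving out day 14 pool 1 raised the counts, and leaving out day 14 pool 2 or 3 lowered them. Without pool 1 there were 818 sequences higher (8.22%) and 667 lower (6.7%) at an unadjusted limma p under 0.05, and 1 call (0.01%). Without pool 2 there were 391 and 303, and without pool 3 430 and 320, with 0 calls in each case. Of the other arrays, leaving out day 7 pool 3 gave 1 call and each of the rest 0. Without control pool 2 the counts at an unadjusted limma p under 0.05 also rose, to 732 higher and 604 lower. They fell with each of the remaining arrays left out. The call made without pool 1 belonged to a sequence measured by 1 probe and chosen here after its values were seen. Its level was 2.64 and 2.94 on day 14 pools 2 and 3 and -3.30 on day 14 pool 1. On day 7 it was -4.87, -4.55 and -3.93 for pools 1, 2 and 3, and in controls -3.57, -4.59 and -3.74. It was thus high on 2 of the 9 arrays, which were those of the same time on different slides, and its probe was not detected above background at day 7 or on day 14 pool 1. In controls the probe was detected on pool 3 alone, without which it would not have passed the filter of 3 arrays. By the mean levels, day 14 pools 2 and 3 were 151-fold higher than day 7, a ratio to signals not above background and not a lower bound. The limma adjusted p was 0.000955 without day 14 pool 1 and 0.299 with it. With slide as a block and without day 14 pool 1, an alternative chosen after the results were seen, 7 sequences were called, all higher at day 14 (0.0703%), with differences of 2.83 to 7.03 on the log2 scale. A block on pools 2 and 3 alone gave 7 calls, 5 higher and 2 lower, of which 3 were among the former. Both fits took their differences from the same arrays, since day 7 pool 1 was left alone on its slide. The shared calls thus add no support, and the fit on pools 2 and 3 alone leaves very few residual degrees of freedom. In the fit with slide as a block and without day 14 pool 1, 916 (9.2%) and 941 (9.45%) were higher and lower at an unadjusted limma p under 0.05.

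**Figure D4:**
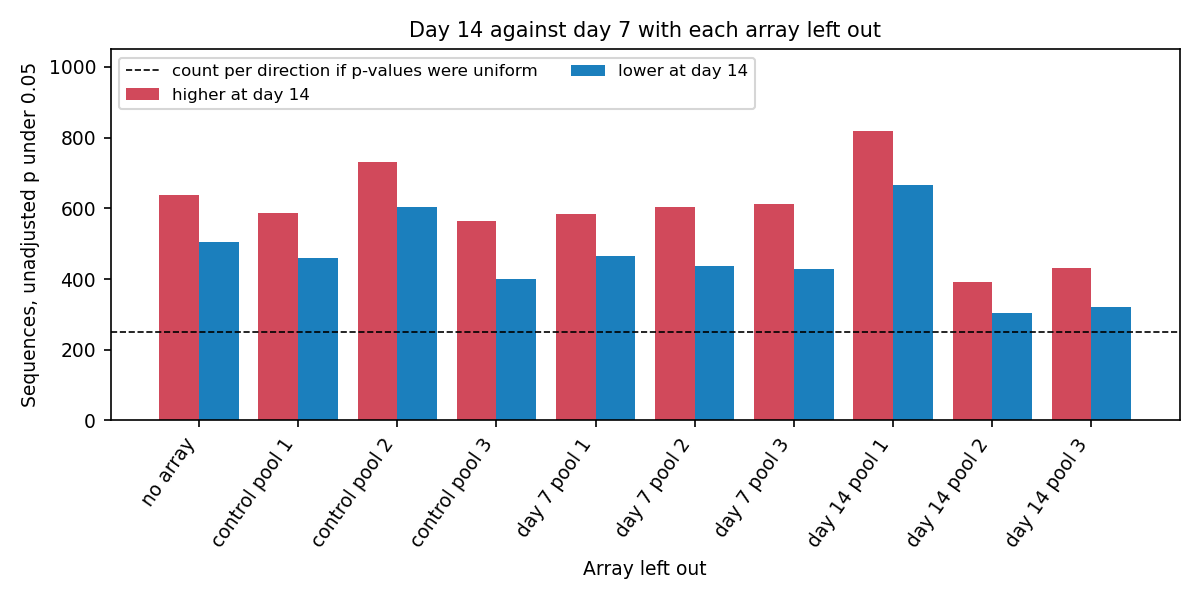
Number of sequences higher (red) and lower (blue) at day 14 than at day 7 at an unadjusted limma p under 0.05, with no array left out and with each of the 9 arrays left out in turn. The dashed line marks the count per direction if p-values were uniform, and the highest bars, 818 and 667, are those without day 14 pool 1.

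A small set of sequences differed in all 3 pairs alike. Past 2-fold within every slide there were 89 sequences higher at day 14 (0.894% of all) and 41 lower (0.412%), and they are described without a test, since the pairs chose them. The 130 became 19 with probes detected on all 9 arrays and 9 after normexp. Their median difference was 1.57 for the 89, with a range of 1.09 to 5.21, and -1.49 for the 41, with sizes of 1.11 to 2.89. They were dimmer than other sequences, with median levels of -2.93 and -2.11 against -1.09 over all. For 40 of the 89, no probe was well above background on any day 7 array, so that their levels at day 7 are signals not above background. Well above background on all 6 cortisol arrays were 19 of the 89 (21.3%) and 11 of the 41 (26.8%), against 54.9% of all sequences. With several kept probes there were 37 of the 89 and 8 of the 41, against 44.6% of all sequences, so most of both sets rested on a single probe. In each sequence with several kept probes, every one had the direction of the set. This adds no support, since the mean of these probes chose the sequence. Single clones made up 51.7% of the 89 and 61% of the 41, against 49.7% of all sequences.

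The detection flags of the arrays gave a related but separate view. Well above background on all 3 day 14 arrays and on none of day 7 were 19 sequences (0.191%), and 1 sequence showed the opposite (0.01%). On day 14 pool 1, 5744 sequences were well above background, against 7843 to 9765 on the other 5 cortisol arrays, and its part in these counts was not tested.

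For most of the 130 sequences past 2-fold in all pairs, though not for most of all sequences, the control mean lay between both times. The controls had no part in the differences that chose the 130, but their detection counted in the filter on dim probes. With probes detected on 3 of the 6 cortisol arrays the 130 became 81, and the part of the filter in the position of the controls was not tested. For 69 of the 89 sequences higher at day 14 (77.5%) the control mean lay between the day 7 and day 14 means, for 8 below day 7 and for 12 above day 14. For 30 of the 41 lower sequences (73.2%) it lay between, for 7 above day 7 and for 4 below day 14. Over all sequences it lay between in 29.7% of those higher and 29.1% of those lower at day 14, and over those with a mean difference past 2-fold in 62.7% and 49.2%. A choice of large differences leaves more room between both times, so these shares are not a result about the 130. The median levels of the 89 were -3.89 at day 7, -2.69 in controls and -2.15 at day 14, and those of the 41 were -1.44, -1.97 and -2.87. The controls were nearer to day 7 in 38.2% of the 89 and in 56.1% of the 41, against 52.2% and 47.5% of all sequences higher and lower at day 14. For the 40 of the 89 without detection at day 7 this nearness rests on signals not above background and is uncertain.

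Individual sequences showed different courses against control. The sequences named here were the 2 higher and the 2 lower ones with the smallest unadjusted limma p among those with 2 or more kept probes, 1 direction in all pairs and in every probe, and detection on all 3 arrays of the higher group. All 4 had a limma adjusted p of 0.206 between the times, above the threshold, and of 0.168 with slide as a block, so their values describe these arrays. Their differences from control reuse the day 7 and day 14 arrays that chose them and share the control arrays, so they are given with no test.

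The clone cDN11P0005A21.F.ab1 had the largest difference of the 4. Its level was -1.04, -0.06 and -0.07 on day 14 pools 1, 2 and 3 and -3.01, -5.22 and -4.38 on the day 7 pools in the same order. In controls it was -5.05, -4.36 and -5.82, with no probe well above background. The day 14 arrays were thus all above the other 6, and on day 7 a probe was well above background on pool 1 alone. The difference between the times was 3.81 ± 0.59 (log2, SE), with differences within slides of 1.97, 5.16 and 4.30 for pools 1, 2 and 3. Its 2 probes parted in the pool 1 pair, where one differed by 3.85 and the other by 0.08. By the mean levels, day 14 was 25.8-fold higher than controls, a ratio to signals not above background and not a lower bound. Over the alternatives the difference between the times lay from 1.08, with the authors' table, to 4.81, with array weights. The clone passed the filter on dim probes mainly through its day 14 arrays.

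Contig3614 was lower at day 7 than at both other points. Its level was -0.18, -0.18 and -0.15 on day 7 pools 1, 2 and 3, 0.89, 1.02 and 1.02 on day 14, and 1.03, 1.06 and 1.22 in controls. The day 7 arrays did not overlap with any other array, whereas day 14 and control were close to each other. Day 14 was 1.15 ± 0.19 (log2, SE) above day 7, and its 3 probes gave 1.17, 1.12 and 1.15. Day 7 differed from control by -1.28 and day 14 by -0.13, and the latter was smaller than the range of the control arrays.

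The sequence Seabream_2006-01-03-CL2284Contig1 had the opposite course. Its level was 3, 2.35 and 2.86 on day 7 pools 1, 2 and 3, 1.56, 1.36 and 1.44 on day 14, and 0.65, 0.83 and 0.99 in controls. The groups did not overlap, and day 14 lay between day 7 and control. Day 14 differed from day 7 by -1.28 ± 0.24 (log2, SE), and from control by 0.63. Day 7 was 1.91 above control.

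The clone cDN01P0005E06.F.ab1 was lowest at day 14. Its level was -2.97, -2.52 and -3.42 on day 14 pools 1, 2 and 3, -1.52, -1.41 and -1.37 on day 7, and -2.19, -1.72 and -2.16 in controls. The day 14 arrays lay below all others, and none of its 4 probes was well above background on day 14 pool 1. Day 14 differed from day 7 by -1.54 ± 0.27 (log2, SE). Day 7 differed from control by 0.59 and day 14 by -0.95.

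**Figure D5:**
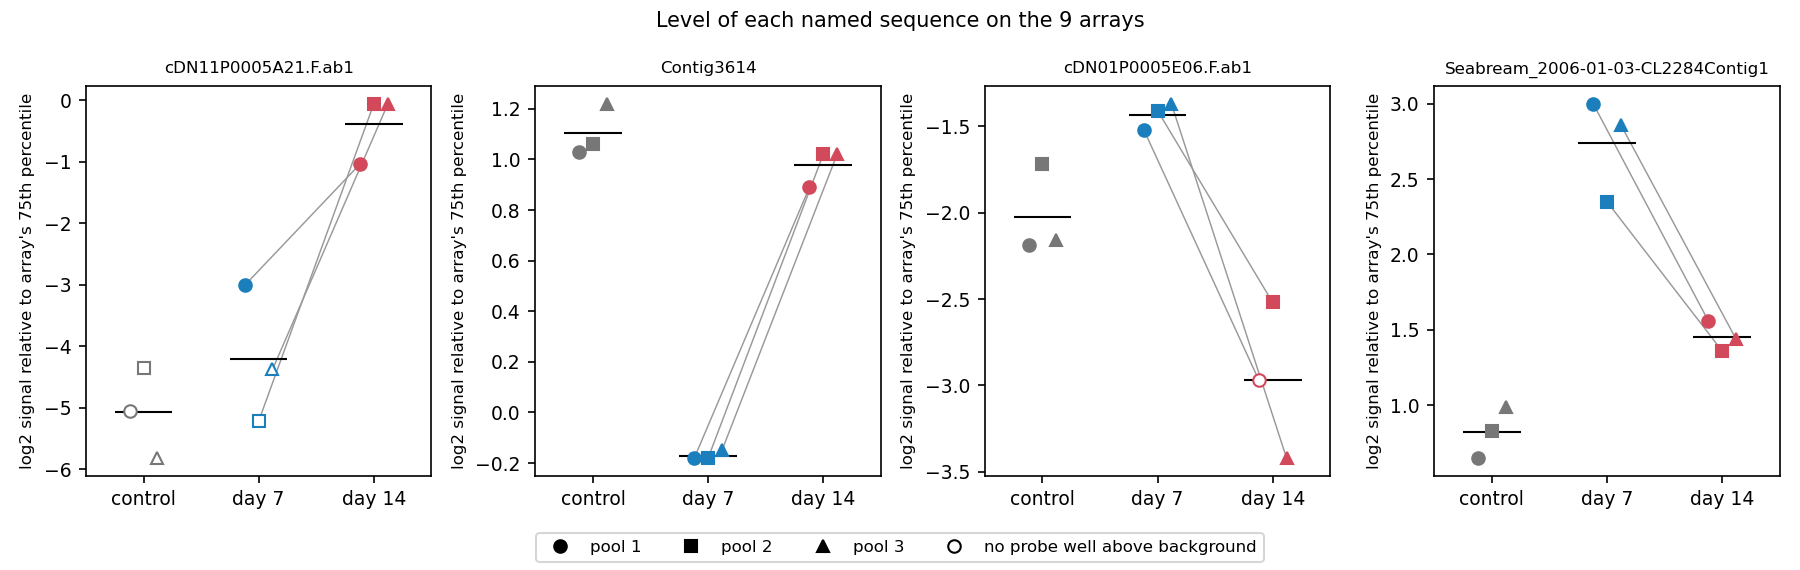
Level of the 4 named sequences on the 9 arrays, on the log2 scale described above, where 0 is the 75th percentile of an array, with a scale of its own for each panel. Points are arrays (circle, square and triangle for pools 1, 2 and 3, open where no probe was well above background), short lines are group means, and grey lines join the arrays of a slide. In each panel the day 7 and day 14 points do not overlap.

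The shares by kind of sequence are given as a description, and their differences were not tested. At an unadjusted limma p under 0.05, 6% of the 4948 single clones of the cDN series were higher and 5.86% lower at day 14, against 7% and 3.5% of the 2230 Seabream cluster contigs and 6.69% and 4.76% of the 2436 sequences named Contig. The smaller kinds lay further out, with 11.9% higher and 3.96% lower of the Mackenzie contigs and 4.18% higher and 7.53% lower of 239 SCT clones. At the same unadjusted limma p, more of the dim sequences were higher than lower at day 14. In the dimmest of the 4 groups 10.1% were higher and 3.74% lower, against 4.5% and 4.46% in the brightest. The median difference of the dimmest group was 0. By pair it was 0.19 for pool 1, -0.06 for pool 2 and -0.13 for pool 3. The lowest signals were higher on day 14 pool 1 than elsewhere, and their part in the shares of dim sequences was not tested.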

How the data were processed

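The authors' files are scanner output of 9 one-colour (Cy3) arrays. Per the file headers, Agilent Feature Extraction 10.7.3.1 made the deposited intensity per spot, subtracted for background and detrended within an array, with no scaling between arrays. The deposited values of control pools 1 and 2 and day 14 pool 3 are rounded more coarsely than the rest. The deposited value table holds the authors' log2 values of the background-subtracted intensity, except for day 7 pool 3, whose column is another deposited scale, a logarithm to base 20. It was used as an alternative, put on the log2 scale.

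Processed signals were taken to log2 and scaled on the 75th percentile of each array over non-control spots, which fixes that point and lets the median move. Outlier spots were left out, spots were averaged per probe, probes well above background (at least 0.5 of their spots) on 3 of the 9 arrays were kept and then averaged per sequence. Missing values in 5 of 9955 sequences were left missing. The 3 groups were fitted with lmFit and eBayes of limma 3.58.1 (R 4.3.3), with 6 residual degrees of freedom, no block and Benjamini-Hochberg adjustment over all sequences. The fit was tested on simulated data. Slide, scan day and pool number as blocks, other normalizations, filters, variance models and each array left out were alternatives. For folds, arrays without detection were set to the higher of their own value and the lowest value well above background. In the folds given their own values were the higher ones, so these are ratios of measured signals. The number of arrays limits the precision.

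The comparison and its lists were chosen with earlier results of these data known. The rule for the named sequences is given with them. Per the labels' protocols fish came from duplicated tanks, and which pool came from which tank is not given. The design text states 36 fish, while 9 pools of 2 make 18. Normexp used median signals with an offset of 50. Figures were drawn with matplotlib 3.10.9.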

Additional observations from a re-analysis of the deposited data

How the results depend on the processing

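The count of 0 calls held in 23 of 30 alternatives. It became 1 with probes in place of sequences, 0 to 1 with each array left out (1 without day 14 pool 1 and 1 without day 7 pool 3), 7 with slide as a block and without day 14 pool 1, 7 (3 of them shared, and 2 of them lower) with the replicate block on pools 2 and 3 alone, 993 with array weights and 83 with these weights estimated gene by gene. The block without day 14 pool 1, the pools 2 and 3 alone and the gene-by-gene weights were added with the results known. Both of these block fits took their differences from the same arrays, so their shared calls add no support. The cause of the gap between 993 and 83 was not tested.

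The 638 sequences higher at an unadjusted p under 0.05 became 178 with normexp background correction, 257 with the authors' table, 361 with probes detected on all 9 arrays (fewer sequences tested), 1198 with probes, 1555 and 1186 with both kinds of array weights and 1356 with pools 2 and 3 alone, and ran from 391 to 818 with each array left out. The 506 lower ones became 257 with normexp, 259 with the median, 299 with probes detected on all arrays, 314 without a filter, 871 with probes, 1782 and 1212 with array weights, 781 with slide as a block, 941 with that block and without day 14 pool 1 and 1558 with pools 2 and 3 alone, and ran from 303 to 667 with each array left out. The cause was not tested.

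The 130 sequences past 2-fold in all pairs became 9 with normexp, 19 with probes detected on all arrays and 81 with probes detected on 3 of the 6 cortisol arrays. Requiring 2 pairs in place of 3 gave 714 without pool 1, 276 without pool 2 and 302 without pool 3. The correlation of the pool 2 and pool 3 differences lay between 0.518 and 0.633 in 9 alternatives and fell to 0.087 with normexp, under which it was 0.314 to 0.617 within groups of like level.

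With the pool number as a replicate block on the 6 cortisol arrays 0 sequences were called, with 676 higher and 733 lower at an unadjusted p under 0.05. The pool number is the slide for these arrays. The arrays of a number deviated together at 0.09, 0.29 and 0.30 for pools 1, 2 and 3, against at most 0.08, -0.08 and -0.03 with another number. Deviations were taken from the group means, so each value depends on the other pools too. The low value of pool 1 therefore cannot decide whether its slide had an effect. The named sequences kept their direction in every alternative run, with differences of 1.08 to 4.81, 0.76 to 1.26, -1.89 to -0.40 and -1.48 to -0.92 for, in this order, cDN11P0005A21.F.ab1, Contig3614, cDN01P0005E06.F.ab1 and Seabream_2006-01-03-CL2284Contig1. They were chosen for 1 direction in all pairs and in every probe of these arrays, so a kept direction adds no support. Their limma adjusted p fell below 0.05 for all 4 with array weights, and otherwise only in alternatives added with the results known or, for the first, with 1 probe in place of the sequence.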
